A study of Homo sapiens with 9 samples.

Results

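Small nucleolar RNAs (snoRNAs) and small Cajal body RNAs were followed in the human myeloma line MM.1S. The cells had been kept for 24 h in the compound HL13 at 5 nM, in LBH589 (panobinostat, a histone deacetylase inhibitor) at 5 nM, or in the solvent DMSO. There were 3 arrays per group and 9 in all, and total RNA was hybridised to an Affymetrix whole-transcript array. HL13 is known here by its code only. A transcript cluster, the set of probes that reads 1 transcript, was taken as a member when its annotation gave a single symbol beginning with SNORD, SNORA or SCARNA. This gave 258 genes (173 SNORD, 64 SNORA and 21 SCARNA) of 22465 genes with a single symbol. Of these, 163 had a value above the array's median over all clusters on at least 3 of the 9 arrays and were tested among 15842 genes: 86 C/D RNAs, 58 H/ACA RNAs and 19 Cajal body RNAs. The other 95 members did not reach that level. Among the 163, 148 were above the median on all 9 arrays. SNORD19 alone passed through a single group, DMSO, where it was high, so that it had to differ between groups. A further 1 member passed in every group but 1, so its passing also depended on the groups. Both stay in the counts over the 163, where SNORD19 is among the members lower than with DMSO.

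Box C/D snoRNAs, named SNORD, guide 2′-O-methylation of ribosomal RNA through fibrillarin, and box H/ACA snoRNAs, named SNORA, guide its pseudouridylation through dyskerin. A few, such as U3 and U14, act in the cleavage of the ribosomal RNA precursor, and Cajal body RNAs, named SCARNA, guide the same modifications on spliceosomal RNAs. In human cells most of these RNAs are not transcribed on their own but are trimmed out of introns of a host gene, often one that encodes a ribosomal protein, a translation factor or a nucleolar protein, or a noncoding RNA whose spliced product is short-lived.

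Values are log2 intensities as deposited, so that a difference of 1 is a doubling, and they were compared only within a cluster. Differences were tested with limma across all 15842 genes on all 9 arrays, and a gene was called where its Benjamini-Hochberg adjusted p was under 0.05. Cultures are not named in the labels, which speak only of biological replicates, so a p value here sets a change against the spread among these arrays, and part of that spread may be technical. In bulk RNA, fewer cells that express a gene and less of its RNA per cell cannot be told apart. The probes of an intronic snoRNA also match the unspliced host transcript, so the processed RNA and its precursor cannot be told apart either. Array medians were 5.33 to 5.38. All 10 plasma cell markers measured were above the median on all 9 arrays. With each compound 9 of these were lower and 1 higher than with DMSO, and their summed linear intensity was 9965.7 to 10371.3 with HL13, 9360.0 to 9700.7 with LBH589 and 17040.8 to 17586.5 with DMSO. Of 11 measured markers of other cells, 5 were above the median on all 9 arrays, while the B cell marker MS4A1, the T cell marker CD3D and the myeloid markers CD14 and LYZ were above it on 0 arrays. The summed linear intensity of those 11 was 546.0 to 564.5 with HL13, 465.0 to 493.7 with LBH589 and 480.6 to 500.9 with DMSO, and the part of either marker list in the results below was not tested.

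The host genes' promoters are shown for hosts of the 8 largest rises and 8 largest falls with HL13, where the host had a single promoter in the RefSeq table of GRCh38.p14; the snoRNAs' own sequences were not used here. Each stretch gives 80 bases before and 20 bases from the annotated start, on the gene's strand. Capitals mark the letters CACGTG, the E-box that MYC and related factors can bind and that reads the same on both strands, or a start at a C followed by at least 4 more pyrimidines, as in genes of the translation machinery. ZFAS1, a noncoding RNA, spans SNORD12, SNORD12B and SNORD12C. SNHG14 spans the SNORD116 copies, WDR43 spans SNORD53 and SNORD92, SNHG26 spans SNORD93, SNHG16 spans SNORD1A and EEF1E1 spans SCARNA27.
ZFAS1, chr20:49278562-49278661, plus strand: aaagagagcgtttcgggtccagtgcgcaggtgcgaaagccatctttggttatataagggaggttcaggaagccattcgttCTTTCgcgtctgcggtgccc
SNHG14, chr15:24823528-24823627, plus strand: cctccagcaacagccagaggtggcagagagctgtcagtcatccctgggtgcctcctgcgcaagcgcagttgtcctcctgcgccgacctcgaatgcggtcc
WDR43, chr2:28894587-28894686, plus strand: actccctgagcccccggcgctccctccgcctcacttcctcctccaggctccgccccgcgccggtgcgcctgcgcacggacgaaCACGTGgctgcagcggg
SNHG26, chr7:22854160-22854259, plus strand: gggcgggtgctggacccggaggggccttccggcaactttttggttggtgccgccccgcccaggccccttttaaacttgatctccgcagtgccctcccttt
SNHG16, chr17:76557684-76557783, plus strand: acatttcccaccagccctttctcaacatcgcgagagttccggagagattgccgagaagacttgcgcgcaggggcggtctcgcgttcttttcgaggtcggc
EEF1E1, chr6:8102529-8102628, minus strand: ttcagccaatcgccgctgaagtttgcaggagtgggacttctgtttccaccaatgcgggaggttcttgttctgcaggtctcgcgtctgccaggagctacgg

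Of these 6 promoters, WDR43 alone held CACGTG anywhere in the table's longer stretch, beginning at base 4 after the start, and ZFAS1 alone began with the pyrimidine run, which was 5 bases long. Among all 35116 promoters of the table, 7.26% held CACGTG and 4.07% began with such a run. The letters TATAAA, searched on both strands, were in none of the 6 and in 11.5% of all promoters. These matches are descriptions of the letters in the window.

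With HL13 more members rose than fell. Of the 163 tested, 70 were higher and 24 lower than with DMSO, which is 42.9% and 14.7%, against 29.5% higher and 28.7% lower among all genes tested. The median log2 fold change was 0.12 for the members and 0.008 for all genes. Without DMSO replicate 1, 30.1% of members were higher and 14.7% lower, against 27.7% and 27.1% of all genes in that fit. With no filter these shares were 26.7% and 12.8% of members, against 22.9% and 21.5% of all genes. Of the 148 members above the median on all 9 arrays, which leave out SNORD19, 45.9% were higher and 12.2% lower. In that fit 28.9% of all genes were higher and 29.6% lower. Among the 163, the arrays of the 2 groups did not overlap for 70 members that were higher and 23 that were lower. The shares of all genes were 34.1% and 32.5%. By class, C/D RNAs had 44 called higher and 16 called lower (median 0.16), H/ACA RNAs 20 and 6 (0.09), and Cajal body RNAs 6 and 2 (0.08). Without the SNORD113 to SNORD116 copies the C/D median was 0.09, as for the H/ACA RNAs. The 44 include 12 SNORD116 and 5 U3 copies, which are close in sequence and not independent measurements. With LBH589, 37 members were higher and 30 lower than with DMSO, 22.7% and 18.4%, against 28.1% and 26.1% of all genes, and the median was 0.02. Here 37 members lay fully above and 33 fully below DMSO, against 30.1% and 27.4% of all genes. Of the 148 members above the median on all 9 arrays, 24.3% were higher and 16.9% lower with LBH589. In that fit 27.8% of all genes were higher and 26.8% lower. By class, among the 163, the calls with LBH589 were 20 higher and 19 lower of the C/D RNAs (median 0.01). They were 14 and 10 of the H/ACA RNAs (0.01) and 3 and 1 of the Cajal body RNAs (0.07). Both comparisons use the same 3 DMSO arrays. Set directly against LBH589, HL13 had 53 members higher and 5 lower, 32.5% and 3.07%, against 15.7% and 16.9% of all genes, with a median of 0.13. In 71 members the HL13 arrays all lay above and in 7 all below the LBH589 arrays, against 20.1% and 22.2% of all genes. The 53 were 35 C/D, 16 H/ACA and 2 Cajal body RNAs, and the 35 include 10 SNORD116 and 5 U3 copies. That count rested on single arrays: it was 19 without HL13 replicate 3, 30 without HL13 replicate 1, 24 without LBH589 replicate 1 and 31 without LBH589 replicate 3, and the 5 lower were 2 without HL13 replicate 1, HL13 replicate 2 or LBH589 replicate 2, and 3 without LBH589 replicate 3. The share of members higher was 11.7% without HL13 replicate 3 and 14.7% without LBH589 replicate 1, below the 13.1% and 15.9% of all genes in the same fits, and with no filter it was 13.2% against 11.7% of all genes.

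**Figure D1:**
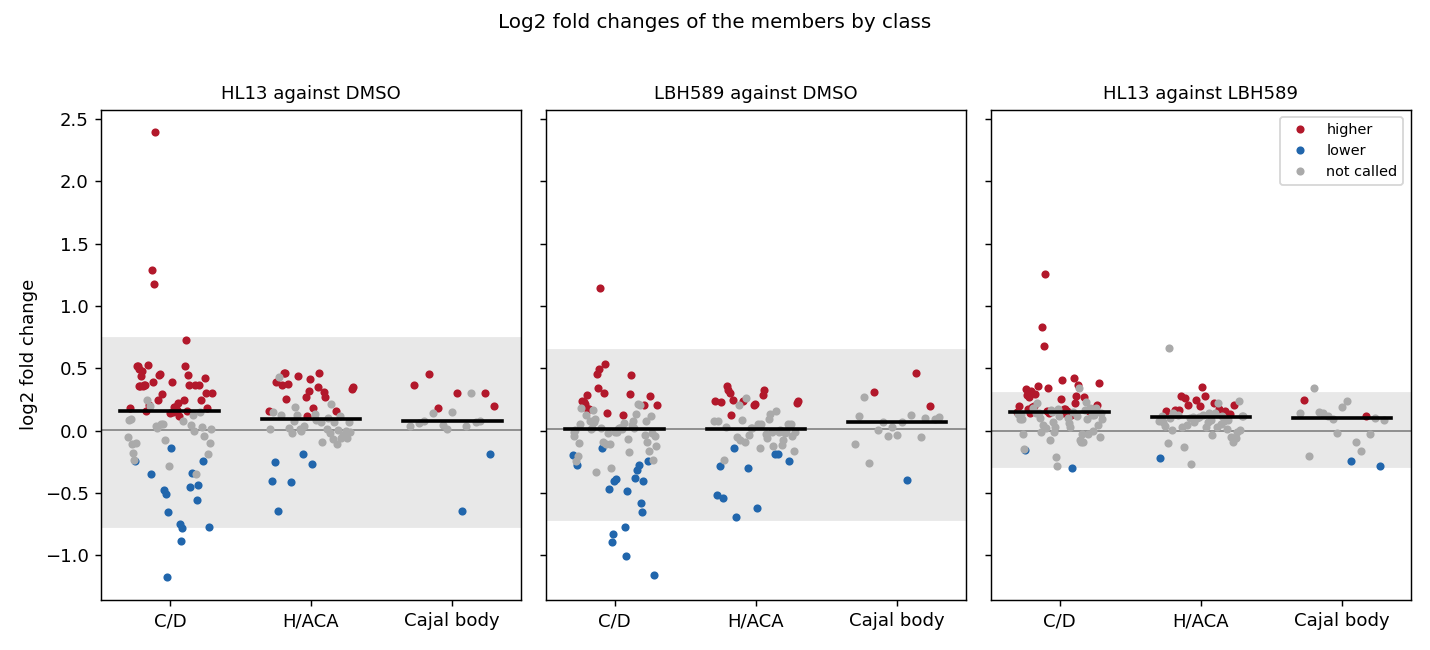
Log2 fold change (vertical axis) of each tested member by class, in 1 panel per comparison, coloured by its call; black bars are class medians, the grey band runs between the 5th and 95th percentiles of all 15842 genes and the grey line is their median. The 3 RNAs of ZFAS1 stand above the other members in HL13 against DMSO and in HL13 against LBH589.

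The spread of a member within its groups decided how small a change could be called. The median within-group SD over the members was 0.0925, and the median standard error of a fold change was 0.0644 for the members against 0.0427 for all genes. SNORA14A and SNORA38B varied most, with within-group SDs of 0.619 and 0.416. SNORA14A had log2 intensities of 6.52, 7.91 and 6.98 with HL13, 6.23, 6.73 and 6.47 with LBH589 and 6.86, 5.88 and 7.39 with DMSO. Its groups overlapped and no comparison of it was called. The C/D RNAs had a median deviation from the DMSO mean of -0.057 on DMSO replicate 1, and of 0.0311 and 0.0371 on DMSO replicates 2 and 3.

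The largest rises with HL13 against DMSO belonged to the 3 C/D RNAs within ZFAS1, a noncoding host gene. SNORD12C had log2 intensities of 8.92, 8.79 and 8.73 with HL13, 7.46, 7.73 and 7.49 with LBH589, and 6.16, 6.51 and 6.58 with DMSO. The 3 groups did not overlap, with HL13 highest and DMSO lowest. Its log2 fold change was 2.40 ± 0.11 (SE, n = 3 arrays per group) with HL13, a 5.27-fold rise (limma, adjusted p = 1.75e-08), and 1.14 ± 0.11 with LBH589, a 2.21-fold rise (adjusted p = 6.04e-06). HL13 exceeded LBH589 by 1.26, with an SE of 0.11 (adjusted p = 1.6e-05). SNORD12 followed the same order, at 9.13, 9.01 and 9.05 with HL13, 8.18, 8.27 and 8.24 with LBH589 and 7.66, 7.82 and 7.83 with DMSO. SNORD12B stood at 7.95, 7.77 and 7.80 with HL13, 7.11, 7.18 and 7.19 with LBH589 and 6.54, 6.76 and 6.70 with DMSO. The groups of both were again fully separate: SNORD12 rose by 1.29 with HL13 and 0.46 with LBH589, and SNORD12B by 1.18 and 0.49. All 3 were called in all 3 comparisons under each of the 17 alternative fits tried. The cluster that reads ZFAS1 itself carries more than one symbol and was not used, so host and intron RNA could not be set side by side.

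SNORD59B and SNORD59A, C/D RNAs within ATP5F1B, the beta subunit of mitochondrial ATP synthase, rose with both compounds. SNORD59B had 9.06, 9.05 and 9.27 with HL13, 8.83, 8.70 and 8.998 with LBH589 and 8.35, 8.37 and 8.46 with DMSO. SNORD59A had 10.52, 10.53 and 10.50 with HL13, 10.29, 10.35 and 10.26 with LBH589 and 9.80, 10.12 and 10.08 with DMSO. No treated array of either RNA fell among the DMSO arrays. Against DMSO, SNORD59B rose by 0.73 with HL13 and 0.45 with LBH589 (adjusted p = 1.55e-05 and 6.44e-04), and SNORD59A rose by 0.52 and 0.30. The host ATP5F1B rose by 0.28 with HL13 and 0.13 with LBH589. For both RNAs HL13 was above LBH589, by 0.28 for SNORD59B and 0.22 for SNORD59A (adjusted p = 0.0211 and 0.038), but neither call was firm. That of SNORD59A was lost without any 1 of the HL13 or LBH589 arrays (adjusted p 0.0563 to 0.105), and that of SNORD59B without HL13 replicate 3 (adjusted p = 0.078), LBH589 replicate 1 (0.0549) or LBH589 replicate 2 (0.0787).

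**Figure D2:**
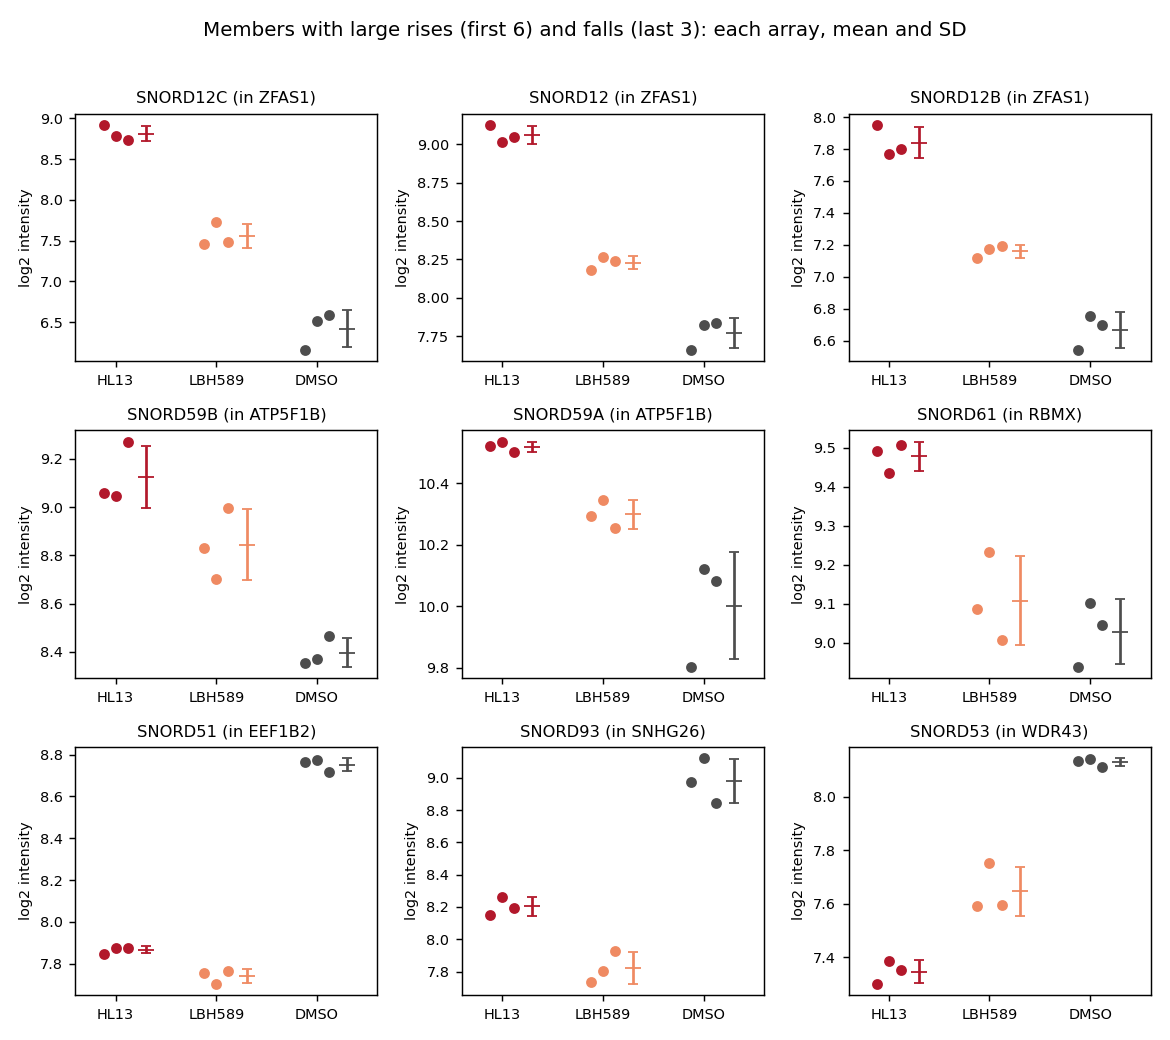
Log2 intensity (vertical axes, which differ between panels and do not start at 0) of 9 members on each array with HL13, LBH589 and DMSO from left to right; dots are arrays, and the bar beside them is the mean ± SD (n = 3). The ZFAS1 RNAs step down in the order HL13, LBH589, DMSO, and SNORD51, SNORD93 and SNORD53 lie lower in both treated groups than in DMSO.

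SNORD116, a C/D family with no known ribosomal RNA target, comes in tandem copies within SNHG14 in the imprinted region of chromosome 15 whose paternal loss causes Prader-Willi syndrome, and is best known from neurons. Of 19 annotated copies 13 were tested, and 12 were higher with HL13 and 7 with LBH589 than with DMSO, with 0 lower in either comparison. Of all genes 29.5% and 28.1% were higher. With no filter, 12 of the 19 copies were higher and 0 lower with HL13, and 5 and 2 with LBH589. The 7 tested copies fell to 5 after centring the arrays, and without DMSO replicate 1 or 2 or LBH589 replicate 2 or 3. The 13 tested copies had a median log2 fold change of 0.37 with HL13 (range 0.16 to 0.52) and 0.17 with LBH589 (0.01 to 0.29). Without SNORD113, SNORD114, SNORD115 and SNORD116, 32 of the 71 other C/D RNAs tested were higher and 15 lower with HL13 (median 0.09). With LBH589, 13 of those 71 were higher and 19 lower (median -0.02). The copies are close in sequence, so probes may read more than one of them, and 13 copies are not 13 independent measurements.

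The brighter copies showed the order of the groups most plainly. SNORD116-15 had 10.95, 10.80 and 10.89 with HL13, 10.49, 10.72 and 10.58 with LBH589 and 10.30, 10.42 and 10.34 with DMSO. SNORD116-17 had 10.53, 10.31 and 10.43 with HL13, 10.11, 10.25 and 10.10 with LBH589 and 9.90, 9.96 and 9.93 with DMSO. Neither copy had overlapping groups. SNORD116-15 rose by 0.52 with HL13 and 0.24 with LBH589, and SNORD116-17 by 0.49 and 0.23 (adjusted p between 2.66e-05 and 6.64e-03). SNORD116-8 had the largest rise with HL13, 0.52, while its 0.17 with LBH589 was not called (adjusted p = 0.166). SNORD116-29 was the copy not called with HL13 (0.25, adjusted p = 0.152). Of all genes 15.7% were higher in the direct comparison. There 10 copies were higher with HL13 than with LBH589 and 0 lower, by 0.14 to 0.36 over the 13. This count was 3 without HL13 replicate 3, 3 without LBH589 replicate 1, 4 without HL13 replicate 1 and 5 without LBH589 replicate 3.

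The neighbouring SNORD115 family stayed dim: 0 of 31 copies passed the filter. Of the families of the imprinted region of chromosome 14, 1 of 31 SNORD114 copies and 1 of 9 SNORD113 copies passed. SNORD113-7 had 5.12, 5.23 and 5.49 with HL13, 5.42, 5.45 and 5.42 with LBH589 and 5.46, 5.60 and 5.52 with DMSO, close to the array medians. It was lower by 0.25 with HL13 (adjusted p = 0.0208), although its groups overlapped by 1 array, and the call was lost without DMSO replicate 2 (adjusted p = 0.0782), HL13 replicate 1 (0.0793) or HL13 replicate 2 (0.0682).

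**Figure D3:**
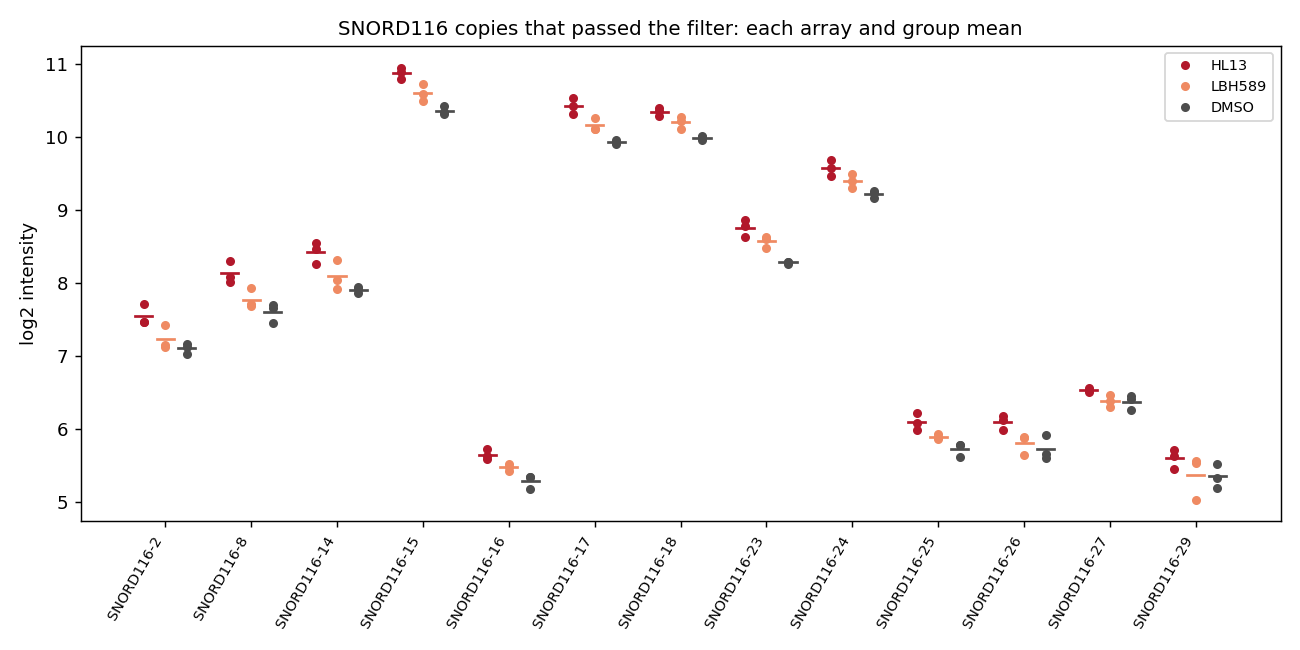
Log2 intensity (vertical axis, not from 0) of the 13 SNORD116 copies tested, each with its arrays (dots) and means (bars) for HL13, LBH589 and DMSO from left to right. Within a copy the HL13 mean is the highest, with median changes against DMSO of 0.37 for HL13 and 0.17 for LBH589.

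Among the RNAs that act in cutting the ribosomal RNA precursor, U3, which starts the processing that yields 18S ribosomal RNA, has its own promoter and no host. Its 5 copies, SNORD3A, SNORD3B-1, SNORD3B-2, SNORD3C and SNORD3D, rose together by 0.15 to 0.19 with HL13 and changed by 0.01 to 0.02 with LBH589. SNORD3A had 13.06, 13.04 and 13.01 with HL13, 12.90, 12.93 and 12.86 with LBH589 and 12.85, 12.80 and 13.00 with DMSO. Every HL13 array was above every DMSO array, the highest DMSO array by little, while the LBH589 arrays lay among the DMSO arrays. SNORD3B-1 and SNORD3B-2 had identical values on every array, and the near-identical copies share reads of 1 RNA. With HL13 5 of 5 were called (adjusted p 0.0145 to 0.0209), but 0 of 5 without DMSO replicate 1 or without DMSO replicate 2, 1 of 5 without HL13 replicate 1 and 4 of 5 without HL13 replicate 2. Against LBH589 5 of 5 were higher with HL13, by 0.14 to 0.17, and this fell to 0 of 5 without any 1 of the HL13 or LBH589 arrays. It was also 0 of 5 with quantile normalization, with no filter and with the replicate number as a block. Without DMSO replicate 1 it was 2 of 5. Of all genes, 29.5% were higher with HL13 than with DMSO and 15.7% higher than with LBH589. The 5 copies are not 5 independent measurements.

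U14 is also needed for 18S ribosomal RNA. Of its copies, SNORD14D and SNORD14E lie in HSPA8, which encodes a constitutive heat shock chaperone. SNORD14D had 10.73, 10.60 and 10.77 with HL13, 10.54, 10.56 and 10.58 with LBH589 and 10.26, 10.22 and 10.30 with DMSO. It rose by 0.44 with HL13 and 0.30 with LBH589, and SNORD14E by 0.46 and 0.53, all 4 changes called. SNORD14A and SNORD14B lie in RPS13, a ribosomal protein gene. SNORD14B rose by 0.25 with HL13 (adjusted p = 0.007) and was at -0.09 with LBH589 (adjusted p = 0.269), while SNORD14A was at 0.02 with HL13 (adjusted p = 0.687) and fell by 0.14 with LBH589 (adjusted p = 0.0165, lost at 0.0592 without DMSO replicate 3 and at 0.173 with quantile normalization). Set directly against LBH589, SNORD14B was 0.34 and SNORD14A 0.16 higher with HL13 (adjusted p = 0.00242 and 0.0136).

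SNORD13, which guides acetylation of 18S ribosomal RNA and has its own promoter, had 13.70, 13.66 and 13.72 with HL13, 13.66, 13.68 and 13.67 with LBH589 and 13.67, 13.67 and 13.61 with DMSO. No change was detectable: the 95% interval of its log2 fold change was -0.03 to 0.11 with HL13 and -0.05 to 0.09 with LBH589.

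Several C/D RNAs fell with both compounds. SNORD51 lies in EEF1B2, a translation elongation factor gene. It had 7.85, 7.88 and 7.88 with HL13, 7.75, 7.71 and 7.77 with LBH589 and 8.77, 8.77 and 8.72 with DMSO. Both treated groups lay far below DMSO, by 0.88 ± 0.03 with HL13 and by 1.01 ± 0.03 with LBH589 (SE, adjusted p = 2.82e-09 and 1.6e-09). LBH589 was the lower of the treated groups (HL13 minus LBH589 0.12, adjusted p = 0.0109, and 0.053 without LBH589 replicate 2). SNORD93, in the noncoding gene SNHG26, had 8.15, 8.26 and 8.20 with HL13, 7.73, 7.81 and 7.93 with LBH589 and 8.97, 9.12 and 8.85 with DMSO. All 3 groups were separate, LBH589 lowest, and SNORD93 fell by 0.78 with HL13 and by 1.16 with LBH589. SNORD19, in GNL3, the nucleostemin gene, had 4.29, 4.13 and 4.60 with HL13, 4.50, 4.63 and 4.74 with LBH589 and 5.55, 5.63 and 5.36 with DMSO. Both treated groups were below the array median, so the DMSO arrays alone carried it through the filter, and its change is given as a description.

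SNORD53 was lower with HL13 than with LBH589. It lies in WDR43, a nucleolar protein gene for early ribosomal RNA synthesis, and had 7.30, 7.39 and 7.35 with HL13, 7.59, 7.75 and 7.60 with LBH589 and 8.13, 8.14 and 8.11 with DMSO. It fell by 0.78 with HL13 and by 0.48 with LBH589, and HL13 minus LBH589 was -0.30 (adjusted p = 6.17e-04). WDR43 itself had 7.48, 7.61 and 7.58 with HL13, 8.25, 8.28 and 8.31 with LBH589 and 9.57, 9.46 and 9.51 with DMSO. The host thus showed the same order of groups with wider steps, and fell by 1.96 with HL13 and by 1.23 with LBH589. SNORD92, the other C/D RNA tested within WDR43, had -0.19 with HL13 and -0.23 with LBH589 and was not called in either (adjusted p = 0.13 and 0.0675).

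SNORD4B in RPL23A, SNORD1A in SNHG16 and SNORA13, in a span shared by several genes, also fell with both compounds. SNORD4B had 7.30, 7.46 and 7.65 with HL13, 7.43, 7.59 and 7.29 with LBH589 and 8.17, 8.31 and 8.16 with DMSO. The treated groups overlapped each other and lay apart from DMSO. SNORD4B fell by 0.75 with HL13 and by 0.78 with LBH589, SNORD1A by 0.65 and by 0.83, and SNORA13 by 0.64 and by 0.54. Between HL13 and LBH589 no difference of SNORD4B (95% interval -0.18 to 0.24) or SNORD1A (-0.04 to 0.40) was detectable. The 2 RNAs of GAS5 read by a cluster of their own, SNORD75 and SNORD78, fell by 0.56 and 0.43 with HL13 and by 0.65 and 0.40 with LBH589. GAS5 is a noncoding host gene that accumulates when growth stops. The other RNAs of GAS5, like those of SNHG1 and RPL13A, were not read by a cluster with a single symbol and are not among the members.

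Among the H/ACA RNAs, SNORA26 in DANCR, a noncoding RNA, and SNORA50C fell more with LBH589. SNORA26 had 7.62, 7.59 and 7.68 with HL13, 7.34, 7.28 and 7.44 with LBH589 and 8.03, 8.01 and 8.09 with DMSO. SNORA50C had 7.57, 7.64 and 7.70 with HL13, 7.38, 7.23 and 7.24 with LBH589 and 7.97, 7.92 and 7.83 with DMSO. Their groups were separate, with LBH589 lowest and DMSO highest. SNORA26 fell by 0.41 with HL13 and by 0.69 with LBH589 (difference 0.28, adjusted p = 0.00105), and SNORA50C by 0.27 and by 0.62 (0.35, adjusted p = 6.74e-04). The host DANCR fell by 0.66 with HL13 and by 0.75 with LBH589. The largest H/ACA rises called with HL13, named after their values were seen, were SNORA20 in TCP1 and SNORA21 in RPL23, at 0.47 and 0.46, with 0.32 and 0.30 for LBH589. SNORA16B in PPP2R5A rose by 0.37 with HL13 and 0.36 with LBH589, with no detectable difference between the compounds (adjusted p = 0.97).

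Several C/D RNAs rose with HL13 alone among the calls, and the direct test then separated the compounds. SNORD37, in EEF2, an elongation factor gene, had 7.89, 7.83 and 7.92 with HL13, 7.58, 7.48 and 7.37 with LBH589 and 7.37, 7.59 and 7.52 with DMSO. SNORD61, in RBMX, an RNA-binding protein gene, had 9.49, 9.43 and 9.51 with HL13, 9.09, 9.23 and 9.01 with LBH589 and 8.94, 9.10 and 9.05 with DMSO. In both the HL13 arrays stood above all others, and the LBH589 and DMSO arrays overlapped. HL13 exceeded LBH589 by 0.40 for SNORD37 and 0.37 for SNORD61 (adjusted p = 7.26e-04 and 9.3e-04). EEF2 itself rose with both compounds, by 0.51 with HL13 and 0.38 with LBH589. SNORD58C in RPL17 was 0.42 higher with HL13 than with LBH589 (adjusted p = 0.00392), made up of a rise of 0.25 with HL13 (adjusted p = 0.0321) and -0.18 with LBH589 (adjusted p = 0.121). That HL13 rise was not called after centring the arrays (adjusted p = 0.0595), with no filter (0.0547) or in a fit of the 6 arrays alone (0.0713), nor without DMSO replicate 1 (adjusted p = 0.126), HL13 replicate 1 (0.125) or HL13 replicate 2 (0.0529). SNORD123 in SNHG18 rose alike, by 0.39 with HL13 and 0.34 with LBH589, a difference of 0.05 with a 95% interval of -0.11 to 0.21.

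Of the 19 Cajal body RNAs tested, SCARNA17 in SNHG22 rose most with HL13. It had 9.71, 9.78 and 9.88 with HL13, 9.71, 9.58 and 9.62 with LBH589 and 9.21, 9.35 and 9.42 with DMSO. Both treated groups lay above DMSO and met each other, and SCARNA17 rose by 0.46 with HL13 and 0.31 with LBH589. SCARNA10, which modifies the U5 spliceosomal RNA, had 8.24, 8.29 and 8.43 with HL13, 8.26, 7.98 and 7.98 with LBH589 and 7.91, 7.96 and 7.99 with DMSO. It rose by 0.37 with HL13 (adjusted p = 0.00175), whereas its 0.12 with LBH589 was not called (adjusted p = 0.228), with LBH589 replicate 1 well above the other two LBH589 arrays. SCARNA23, SCARNA7, SCARNA9L and SCARNA2, which modifies the U2 spliceosomal RNA, rose by 0.31, 0.30, 0.20 and 0.18 with HL13. The rise of SCARNA2 was lost without DMSO replicate 1 (adjusted p = 0.0514) or HL13 replicate 3 (0.0515). With LBH589 SCARNA7 rose by 0.20 and SCARNA4 by 0.47, and SCARNA4 was lost without DMSO replicate 1 (adjusted p = 0.0664) or LBH589 replicate 3 (0.0711).

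SCARNA27, in EEF1E1, a gene of the aminoacyl-tRNA synthetase complex, was the Cajal body RNA that fell with both compounds. It had 6.08, 6.12 and 6.37 with HL13, 6.34, 6.47 and 6.49 with LBH589 and 6.75, 6.80 and 6.95 with DMSO. Every treated array was below every DMSO array, with falls of 0.65 and 0.40. SCARNA8 had 5.46, 5.42 and 5.22 with HL13, 5.64, 5.62 and 5.68 with LBH589 and 5.62, 5.57 and 5.47 with DMSO, near the array median. It was lower with HL13 than with LBH589 by 0.28 (adjusted p = 0.00498) and than with DMSO by 0.18 (adjusted p = 0.0232, lost at 0.0878 without DMSO replicate 1, 0.0642 without DMSO replicate 2 and 0.0707 without HL13 replicate 3). With SNORD53, SCARNA27 and SCARNA8, the 5 members lower with HL13 than with LBH589 included SNORA11 in MAGED2 and SNORD114-31 in MEG8. SNORA11 had 6.62, 6.74 and 6.82 with HL13, 6.91, 7.10 and 6.85 with LBH589 and 6.67, 6.80 and 6.67 with DMSO. Its LBH589 arrays stood above all others, and HL13 minus LBH589 was -0.22 for SNORA11, -0.15 for SNORD114-31 and -0.25 for SCARNA27 (adjusted p = 0.0374, 0.0368 and 0.0369). All 3 calls were lost without HL13 replicate 1 (adjusted p 0.136 to 0.138), HL13 replicate 2 (0.0711 to 0.122) or LBH589 replicate 2 (0.0669 to 0.127). SNORA11 was also lost without DMSO replicate 3 (0.0502) or LBH589 replicate 1 (0.0517), SNORD114-31 without LBH589 replicate 1 (0.0741) or 3 (0.0859), and SCARNA27 without DMSO replicate 2 (0.0517) or LBH589 replicate 3 (0.107).

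**Figure D4:**
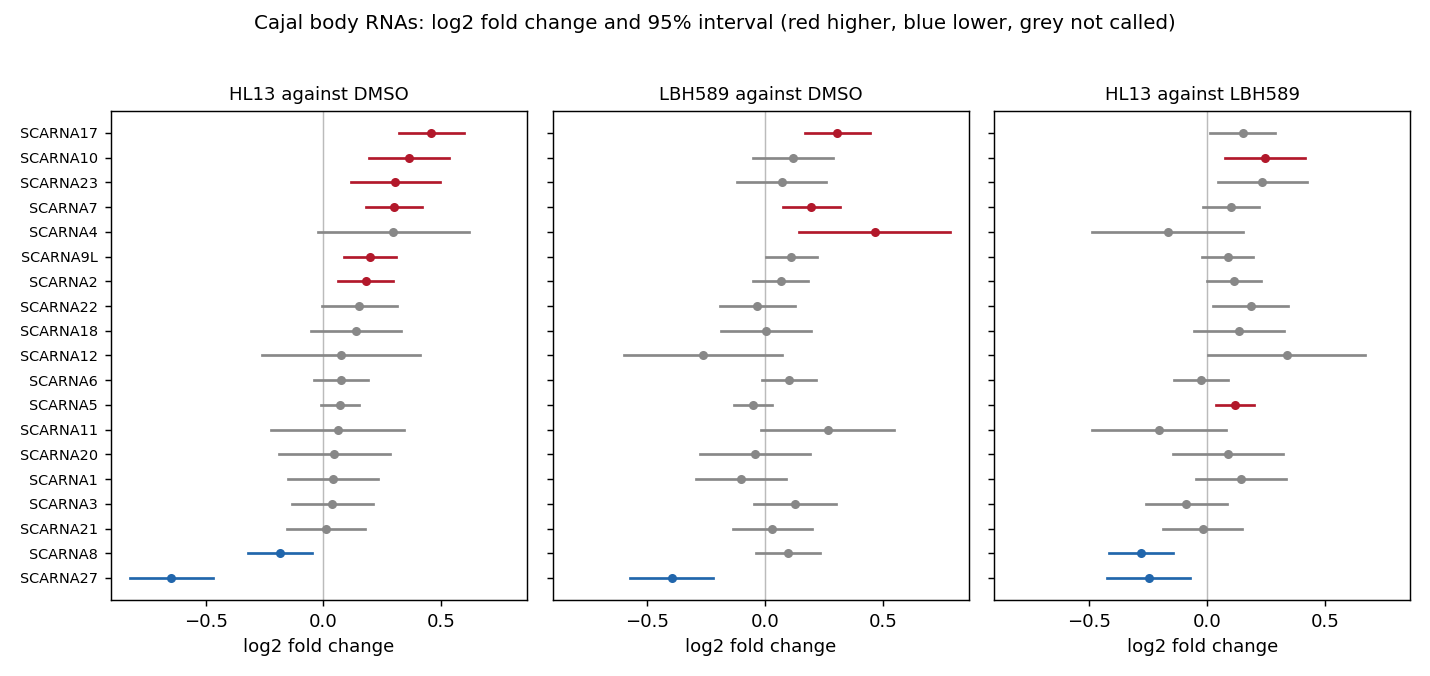
Log2 fold change (horizontal axis) with its 95% interval for the 19 Cajal body RNAs tested, in 1 panel per comparison, red where higher, blue where lower and grey where not called. With HL13 6 were higher and 2 lower than with DMSO, 31.6% and 10.5% against 29.5% and 28.7% of all genes, and with LBH589 3 and 1, 15.8% and 5.26% against 28.1% and 26.1%.

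Of the 148 tested members with 1 host, the host could be tested beside 79, which lie in 64 hosts. These pairs hold 27 C/D, 39 H/ACA and 13 Cajal body RNAs. The SNORD116 copies, the RNAs of ZFAS1 and GAS5, SNORD51 and SNORD93 are not among them, so many of the largest changes are left out. Of the 76 host genes of members that were tested, 16 were higher and 40 lower with HL13, and 13 and 40 with LBH589, beside 29.5% and 28.7% of all genes with HL13 and 28.1% and 26.1% with LBH589. This stands beside 24 and 30 of the 163 members lower. Across the 79 pairs the member's and the host's log2 fold change had Pearson's r = 0.462 and Spearman's rho = 0.397 with HL13, and 0.48 and 0.511 with LBH589. The pairs share arrays and, within a gene, hosts, and the genes are not independent replicates. With HL13 the host was lower in 43 pairs, and in these 6 members were lower, 10 were higher and 27 were not called. The host was higher in 16 pairs, and in these 9 members were higher and 0 lower. With LBH589 the host was lower in 41 pairs, with 10 members lower, 4 higher and 27 not called.

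Some pairs that parted are named here after their values were seen. TSR1, a factor of small ribosomal subunit maturation, spans SNORD91B and had 7.81, 7.83 and 7.78 with HL13, 8.18, 8.26 and 8.21 with LBH589 and 9.36, 9.32 and 9.30 with DMSO. SNORD91B had 8.85, 8.85 and 9.06 with HL13, 8.69, 8.68 and 8.77 with LBH589 and 8.65, 8.70 and 8.86 with DMSO. The host fell by 1.52 with HL13 and by 1.11 with LBH589, while the intron RNA was at 0.18 (adjusted p = 0.0375) and -0.02 (adjusted p = 0.822). URB1, a nucleolar factor of large subunit assembly, spans SNORA80A and had 6.83, 6.86 and 6.91 with HL13, 7.82, 7.84 and 7.84 with LBH589 and 8.56, 8.50 and 8.51 with DMSO. SNORA80A had 8.85, 8.94 and 9.13 with HL13, 8.92, 8.96 and 9.02 with LBH589 and 9.04, 8.95 and 8.95 with DMSO. URB1 fell by 1.66 with HL13 and by 0.69 with LBH589 with fully separate groups, whereas the groups of SNORA80A overlapped, at -0.01 with each compound. TNPO2, an importin that spans SNORD41, fell by 1.23 with HL13 and by 1.02 with LBH589, and SNORD41 rose by 0.22 and 0.13. SNHG17, a noncoding host, fell by 0.80 with HL13 and by 0.68 with LBH589, and of its 4 H/ACA RNAs tested 1 was higher and 0 lower with HL13, and 0 of 4 were called with LBH589.

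**Figure D5:**
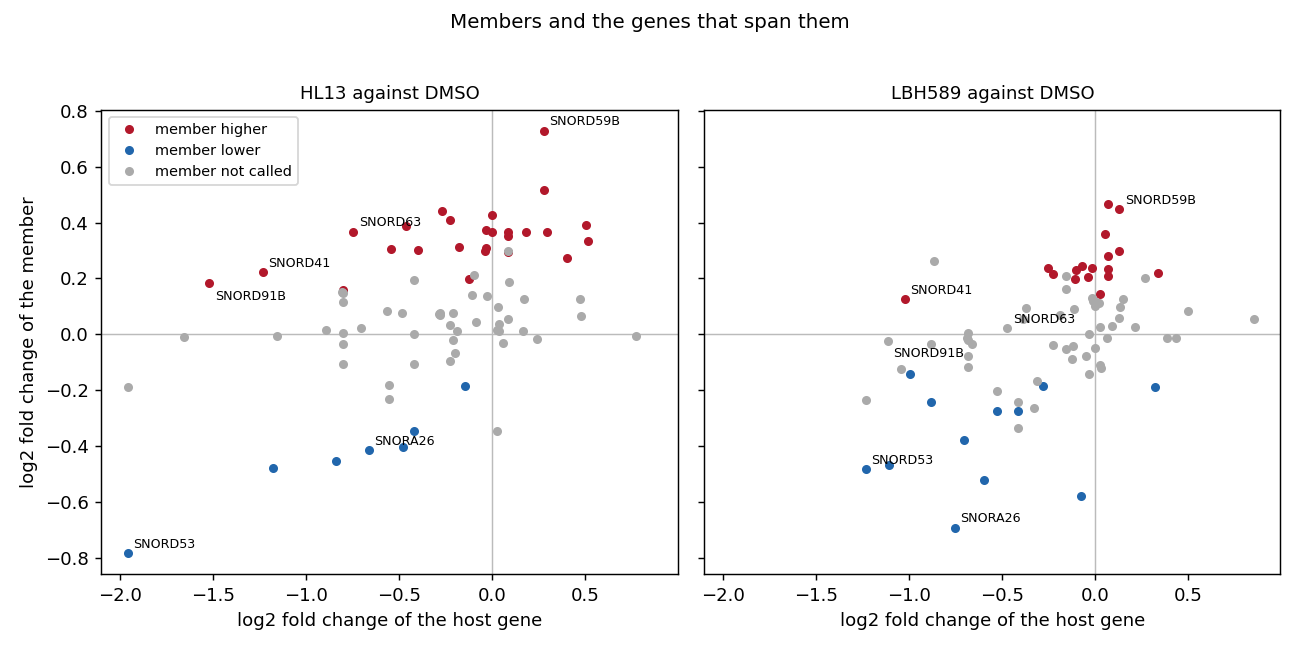
Log2 fold change of a member (vertical axis) against that of the gene that spans it (horizontal axis) for 79 pairs, with HL13 and with LBH589 against DMSO; colours give the member's call. With HL13 43 of the hosts' points are called lower, while the members in them include 10 called higher, such as SNORD91B and SNORD41.

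By kind of host, members in noncoding RNAs had 21 of 36 higher and 6 lower with HL13, and 13 and 7 with LBH589. SNORD116 copies make up 13 of these 36. Members in ribosomal protein genes had 10 of 20 higher and 4 lower with HL13, but 2 higher and 5 lower with LBH589. Members in translation factor genes had 3 of 8 higher and 3 lower with HL13, and 0 higher and 4 lower with LBH589. Members in other protein-coding genes had 26 of 81 higher and 8 lower with HL13, and 19 and 11 with LBH589. Beside these, 29.5% of all genes were higher and 28.7% lower with HL13, and 28.1% and 26.1% with LBH589.

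Of 36 listed genes for proteins that bind, assemble and trim these RNAs, 33 were tested, with 7 higher and 19 lower with HL13, 9 and 17 with LBH589, and 3 higher and 18 lower with HL13 than with LBH589. Of all genes 29.5% were higher and 28.7% lower with HL13, and 28.1% and 26.1% with LBH589. With HL13 against LBH589 these shares were 15.7% and 16.9%. All 3 tested core proteins of C/D particles fell with both compounds: FBL, the methyltransferase fibrillarin, by 0.49 with HL13 and by 0.26 with LBH589, NOP58 by 0.42 and by 0.41, and SNU13 by 0.39 and by 0.35. Of the H/ACA core, GAR1 fell by 0.56 with HL13 and by 0.44 with LBH589 and NHP2 by 0.48 and by 0.35, while NOP10 was at 0.04 and 0.02 and was not called. NOP56 and the pseudouridine synthase gene DKC1 were not read by a cluster with a single symbol and were not tested.

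Assembly factors were split: of 10 tested, 3 were higher and 5 lower with HL13, and 4 and 4 with LBH589. NUFIP1, an adaptor in C/D particle assembly, had 5.71, 5.58 and 5.55 with HL13, 6.17, 6.22 and 6.30 with LBH589 and 6.88, 6.87 and 6.80 with DMSO, and fell by 1.24 with HL13 and by 0.62 with LBH589. NAF1, which carries H/ACA particles in the making, fell by 0.77 with HL13 and by 0.33 with LBH589. By contrast RPAP3 of the R2TP chaperone complex rose by 0.64 with HL13 and 0.58 with LBH589, and SHQ1, the chaperone of dyskerin, by 0.50 and 0.82. Of 6 genes for Cajal body and nucleolar carriers, 1 was higher and 4 lower with HL13, and 2 and 3 with LBH589. Among them COIL, the scaffold coilin of Cajal bodies, fell by 0.61 with HL13 and by 0.81 with LBH589. Of 11 tested genes for trimming and decay, 3 were higher and 5 lower with each compound. Among these, TOE1, an exonuclease of Cajal bodies, fell by 1.28 with HL13 and by 1.33 with LBH589. EXOSC10, the nuclear exosome's catalytic subunit, fell by 0.80 and by 0.94. For these short lists the shares of all genes were 29.5% higher and 28.7% lower with HL13, and 28.1% and 26.1% with LBH589.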

How the data were processed

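The authors deposited log2 intensity values of 70523 transcript clusters on 9 Affymetrix arrays, 3 each with HL13, LBH589 and DMSO. Array medians are nearly equal; the method of summarisation and normalization was not given in the sources used here. From the range of values (1.72 to 14.6) the scale was taken as log2, and scanner files, detection flags and background values were not used here. The study's methods describe RNA sequencing of such cells, not these arrays. Clusters were named from the platform annotation, 23781 with 1 symbol, 1543 with several and 45199 with none. Values were used as deposited, on the log2 scale. A gene was read by its cluster with the highest mean over all 9 arrays, and kept where that cluster was above the array median on at least 3 of 9 arrays. limma 3.58.1 in R 4.3.3 was fitted to 15842 genes and 9 arrays with a mean per group (lmFit, eBayes), with Benjamini-Hochberg adjustment over all genes. It was tested on simulated data first. The number of arrays limits the precision, and no count or depth exists for arrays.

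Hosts are the single gene of the GRCh38.p14 RefSeq table whose span holds the member, small RNAs, readthrough and LOC symbols left out; the table gives no strand for members, so that strand, though planned, was not required. Of 258 members, 245 matched this table by gene ID and 242 had 1 host. No member coordinates are given, since the clusters' build is not stated. The text names the 8 largest called rises and falls with non-overlapping arrays in each comparison, members of the processing, Cajal body, GAS5, SNHG1, RPL13A and imprinted lists, hosts of named members and the machinery lists. The members and all lists were chosen with earlier results of these data known. Alternatives were 8 other ways of fitting or scaling, and leaving out each array in turn.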

Additional observations from a re-analysis of the deposited data

Results flagged for a closer look

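Outside the members lie 109 clusters annotated with several symbols of which at least 1 is a small RNA, and 29 of them carry small RNAs only. Of these 29, 14 were above the array median on at least 3 arrays, and they hold 10 distinct sets of values. The 5 sets first given below had every HL13 array above every DMSO array and an adjusted p under 0.05 in a limma fit over all 70523 clusters. They lie outside the genes tested and were picked because they rose. The share of all 70523 clusters that rose in this way is not given here. The cluster of SCARNA9 and SCARNA9L had 10.24, 10.20 and 10.20 with HL13, 10.03, 10.10 and 10.16 with LBH589 and 9.82, 9.92 and 9.84 with DMSO. It was higher by 0.36 with HL13 (adjusted p = 3.44e-04) and by 0.24 with LBH589 (adjusted p = 0.00406). The other 4 sets read pairs of SNORD116 copies: SNORD116-3 and SNORD116-9 were higher by 0.58 with HL13, SNORD116-2 and SNORD116-6 by 0.56, SNORD116-5 and SNORD116-7 by 0.54, and SNORD116-20 and SNORD116-21 by 0.39, with adjusted p between 0.00164 and 0.0321. Such probes do not tell the copies apart, and these sets may read the same RNAs as the single-symbol copies. Among the 10 sets, that of SNORD62A and SNORD62B went the other way. It was lower by 0.29 with HL13 and by 0.19 with LBH589 (limma, adjusted p = 0.0029 and 0.0314), without overlap with the DMSO arrays.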

How the results depend on the processing

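Medians of the log2 fold change moved most. With HL13 against DMSO, centring each array on its median gave 0.126 for C/D, 0.061 for H/ACA and 0.0462 for Cajal body RNAs, quantile normalization gave 0.138 for Cajal body RNAs, no filter gave 0.0288 for C/D RNAs and a filter on all 9 arrays gave 0.118 for H/ACA RNAs. With LBH589 against DMSO, quantile normalization gave 0.0478 for C/D and 0.0499 for H/ACA RNAs, centring gave -0.01 for H/ACA and 0.0479 for Cajal body RNAs, no filter gave -0.00798 for H/ACA and 0.0659 for Cajal body RNAs, and a filter on all 9 arrays gave 0.025 for H/ACA and 0.0659 for Cajal body RNAs. With HL13 against LBH589, no filter gave 34 members higher and a C/D median of 0.0914, and a fit of the 6 arrays alone gave 3 members lower. The cause of these moves was not tested.

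Leaving out 1 array at a time, the HL13 against DMSO medians were 0.119 to 0.178 for C/D, 0.0794 to 0.117 for H/ACA and 0.0642 to 0.166 for Cajal body RNAs, with 49 to 71 members higher and 19 to 24 lower. The LBH589 against DMSO medians were -0.0272 to 0.0308 for C/D, -0.0033 to 0.0316 for H/ACA and 0.0299 to 0.093 for Cajal body RNAs, with 28 to 38 members higher and 27 to 35 lower. In HL13 against LBH589, 19 to 53 members were higher and 2 to 7 lower, 8 to 16 host genes were higher and the Cajal body median was 0.0753 to 0.116. Host genes higher there were 15 with all arrays, 9 without HL13 replicate 1, 8 without HL13 replicate 2 and 8 without LBH589 replicate 2.

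Deviations of same-numbered arrays had correlations of -0.303 to 0.0612, and those of differently numbered arrays -0.194 to 0.318. With 3 arrays per group these values cannot decide whether the numbers pair the samples. With the replicate number as a block, 68 members were higher and 23 lower with HL13 than with DMSO, 37 and 30 with LBH589 than with DMSO, and 40 and 5 with HL13 than with LBH589. There 0 of 5 U3 copies were called between HL13 and LBH589, and the HL13 rise of SNORD58C was not called (adjusted p = 0.0518). The block also gave 6 higher and 19 lower machinery genes and 14 and 40 host genes with HL13, and 8 and 17 machinery and 12 and 40 host genes with LBH589. Over 66 named members and 3 comparisons, 3348 values were recomputed, of which 3102 kept their side of the threshold, 212 lost a call and 34 gained one. Of the called values 0 changed sign, while some uncalled values did. The 3 arrays per group limit the precision, and members near the array median have the least signal over background.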
